A study of Mus musculus with 7 samples.

Results

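T and B cells were a small lymphocyte population of the mouse mammary gland, 60 of 13684 cells profiled by single-cell RNA sequencing. They were taken as the cells that carried this name in the metadata deposited with the counts, and 4 to 19 came from each of 7 mice. The donors were virgin (nulliparous) females in diestrus, of mixed FVB, 129 and C57BL/6J background, with no engineered allele or treatment named in the labels. The young group held 3 mice of 3 to 4 months (Young A, B and C, 20 T and B cells) and the aged group 4 mice of 13 to 14 months (Aged A, B, C and D, 40 cells). Number 4 glands were freed of their lymph nodes and digested with collagenase and hyaluronidase. Cells were not sorted, so the lymphocytes were those released from the tissue itself together with any carried in its vessels.

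T cells recognise peptide-MHC complexes through a clonal receptor whose signal is passed on by the invariant CD3 chains. CD8 T cells, marked by the co-receptor chains Cd8a and Cd8b1, kill target cells and secrete chemokines and interferon, whereas CD4 T cells help or restrain other immune cells. B cells signal through Cd79a and Cd79b, and natural killer (NK) cells share much of the cytotoxic program of CD8 T cells without a rearranged receptor. Many T cells of epithelial tissues stay in place and do not recirculate, a state associated with Cd69 and Cxcr6 and with low S1pr1, the receptor that guides lymphocytes out of tissue.

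The 60 cells held 2773 to 10882 unique molecular identifiers (UMIs, each standing for 1 captured mRNA molecule) and 777 to 2475 genes, with a median of 4392 UMIs. The median was 4385 UMIs in young and 4565 UMIs in aged cells. At the median depth 1 UMI is worth 228 CPM (UMIs of a gene per 1000000 UMIs), so a gene without a UMI in a single cell may still be expressed there, and intervals given here cover counting error alone. Scrublet, run on each mouse, called 0 of the 60 cells doublets. Of the 60 cells, 2 carried a barcode that also occurred in another mouse's library. Young and aged libraries differed in barcode format, and effects of age and of library processing cannot be told apart here.

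The cells were first described by the markers that the study used to name them. At least 1 UMI from Cd3d, Cd3e or Cd3g was present in 51 of the 60 cells, and the median cell held 7 UMIs of these 3 genes. The 9 cells without one were mixed. Among them, 2 cells had 10 or more UMIs of B cell and plasma cell genes, 4 had Tyrobp or Fcer1g, the signaling adaptors of NK and myeloid cells, and the other 3 had 4 to 6 UMIs of T cell signaling genes. The 4 cells with an adaptor held 1 to 4 UMIs of the same signaling genes. The other 3 held 1, 8 and 3 of the 13 UMIs of Il2ra, an interleukin 2 receptor chain, and their lineage was not tested. By these transcripts most of the cells were T cells, and the B cell part of the name rested on 2 cells. The name was given from clusters of the same measurements with CD3 and Cd79 genes as markers. These counts therefore describe the cells and do not test the name. A CD3 chain alone did not set a cell apart from NK cells. A cell of Aged A with 7 UMIs of Cd3g held 0 of the T cell signaling genes and 12 of Tyrobp and Fcer1g.

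These 2 cells differed from each other. A cell of Aged A held 15 UMIs of Cd79a, 213 of Jchain, which joins secreted antibody into polymers, and 29 of Mzb1, a chaperone of antibody-secreting cells. A cell of Aged D held 5 UMIs of Cd79a and 4 of Cd79b, 4 of Mzb1, none of Jchain, and 62 of Cd74 and 17 of H2-Aa, which present antigen on MHC class II. The B cell genes Ms4a1, Pax5 and Cd22 were at 0 in all 60 cells, and a count of 0 in 60 cells allows a share of up to 5% of cells with a UMI, which does not limit the share expressing the gene. The constant genes of the T cell receptor and of antibodies, 11 genes of the lists used, were not analysed here.

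**Figure D1:**
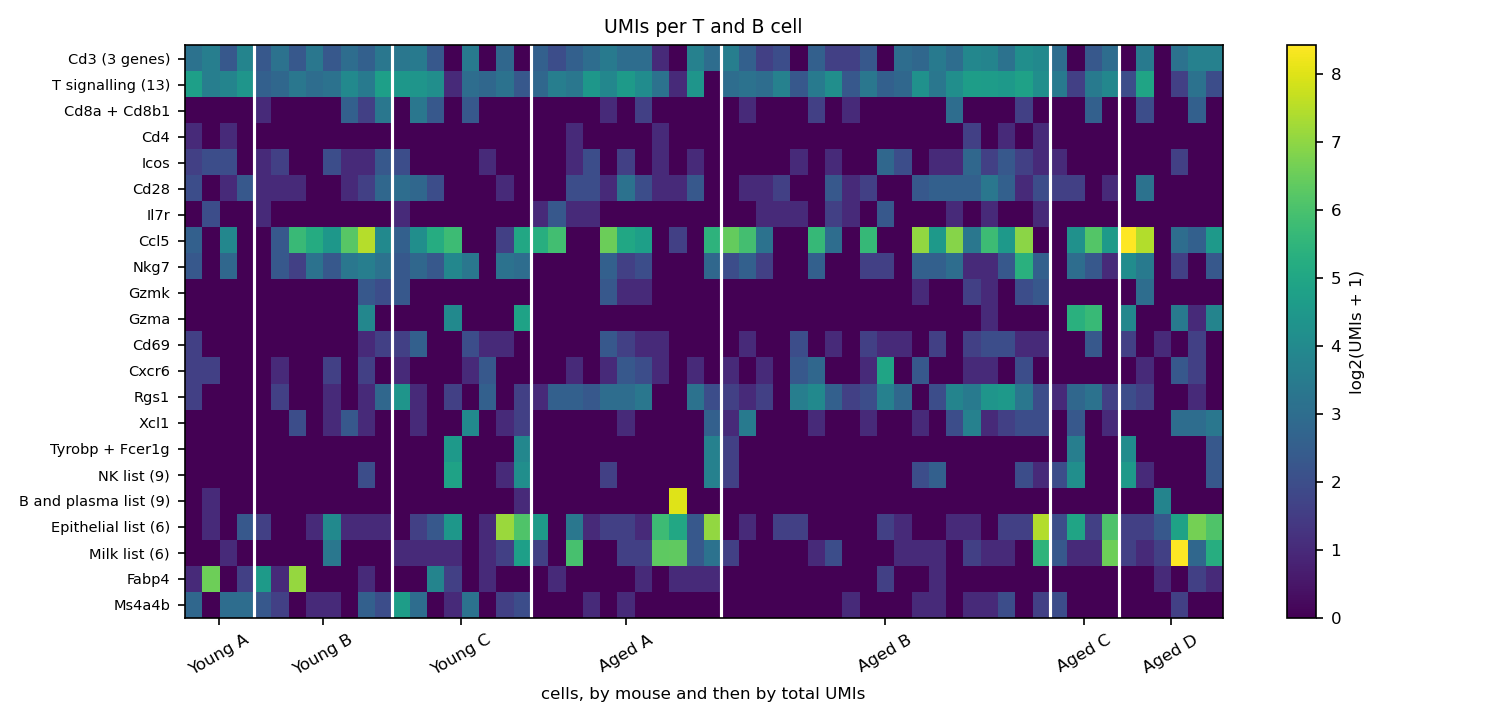
UMIs of single genes and gene lists (rows) in each of the 60 T and B cells (columns), as log2(UMIs + 1), with cells grouped by mouse between white lines and ordered by total UMIs within a mouse. Cd3 and T signaling genes ran through most columns, Ccl5 was high in part of the cells of every mouse but Young A, whose cells held at most 14 UMIs, B and plasma cell genes stood out in 2 cells of aged mice, and epithelial genes in single cells of 5 of the 7 mice.

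Among the receptor chains, Cd3g was detected in 46 of 60 cells, Cd3e in 42, Cd3d in 41 and Cd247, the signaling zeta chain, in 23. The summed T and B cells of Young A, B and C held 1005, 917 and 344 CPM of Cd3g, and those of Aged A, B, C and D 436, 633, 197 and 589.9 CPM. Cd3d stood at 828, 474 and 215 CPM in the young and at 209.9, 621, 197 and 225 CPM in the aged mice. Cd3e was more even, at 296, 189.7 and 279.8 CPM in the young and 388, 341, 316 and 365 CPM in the aged mice. The levels of Cd3d and Cd3g overlapped between ages, while those of Cd3e did not. None of the 3 differed in the test across genes described below (adjusted p = 0.67, 0.55 and 0.55 for Cd3d, Cd3g and Cd3e by edgeR). Outside lymphocytes these genes were at background, with a UMI of Cd3g in 0.225% and of Cd3d in 0.27% of epithelial cells at a median of 6270 UMIs. NK cells held 769 ± 330 CPM of Cd3g, 306 ± 257 of Cd3e and 296 ± 191 of Cd3d (SD, n = 5 mice). The T and B cells held 589 ± 294, 311 ± 65.4 and 396 ± 251 CPM (SD, n = 7), so mean levels differed little from NK cells beside this spread. The 3 chains each had a UMI in 40% to 45% of NK cells and in 68.3% to 76.7% of T and B cells.

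Cd3g was present in 37 of 41 cells with Cd3d (median 4024 UMIs) and in 9 of 19 cells without it (median 5190 UMIs), which is given as a description. The genes lie head to head on chromosome 9, Cd3g at 44969572 to 44980431 on the minus strand and Cd3d at 44981786 to 44987339 on the plus strand (GRCm38), with 1355 bases between their starts. The 250 bases before each start are shown because this divergent pair gave 2 of the 3 receptor transcripts found in over 40 cells. They are from RefSeq on GRCm38.p6, written in the direction of the gene, with matches to CANNTG, the E-box letters bound by basic helix-loop-helix factors, in capitals.
Cd3g, chr9:44980432-44980681, minus strand: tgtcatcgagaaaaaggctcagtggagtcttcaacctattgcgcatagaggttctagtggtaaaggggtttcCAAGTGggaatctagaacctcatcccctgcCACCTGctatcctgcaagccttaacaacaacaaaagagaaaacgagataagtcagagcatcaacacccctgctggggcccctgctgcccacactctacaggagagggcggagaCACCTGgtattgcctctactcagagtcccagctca
Cd3d, chr9:44981536-44981785, plus strand: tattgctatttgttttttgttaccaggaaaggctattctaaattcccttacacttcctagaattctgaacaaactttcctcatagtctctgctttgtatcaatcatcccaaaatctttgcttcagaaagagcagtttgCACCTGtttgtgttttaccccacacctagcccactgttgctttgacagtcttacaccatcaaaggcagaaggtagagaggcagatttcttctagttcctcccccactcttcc
The pattern reads the same on both strands and was the only one searched, with 3 matches before Cd3g and 1 before Cd3d. It occurred in 66.2% of 32841 such windows across the genome, 12.2% of which held 3 or more matches. Id2 and Id3, inhibitors of factors that bind E-boxes, were detected in 38 and 18 of the 60 cells, and Ets1, a regulator of T cell genes, in 40. None of the 3 was particular to these cells. Id2, Id3 and Ets1 had a UMI in 46.8%, 41.2% and 18.2% of epithelial cells and in 82.5%, 40% and 57.5% of NK cells.

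The signaling and adhesion genes downstream of the receptor were all detected, 13 of 13, with a UMI of at least 1 of them in 58 of 60 cells. The costimulatory receptor Cd28 was present in 39 cells at 373 ± 134 CPM (SD, n = 7 mice), the adaptor Lat in 38 cells at 297 ± 254 CPM, and the kinase Lck in 35 cells at 292 ± 130.5 CPM. Cd6 and Cd5, receptors that tune signal strength, were present in 25 and 16 cells. Compared with the 40 NK cells (median 4224 UMIs), 10 of the 13 genes had a UMI in a larger share of T and B cells, with the widest gaps for Cd28 (6 NK cells), Cd6 (0) and Lat (14). Thy1 and Ptpn22 were nearly level, at 50% and 58.3% of T and B cells against 45% and 55% of NK cells. Lck, Lcp2 and Cd96 were found in larger shares of NK cells, at 70%, 20% and 22.5% against 58.3%, 15% and 6.67%. Cd3g had a UMI in 18 NK cells. Since the names were given from clusters of the same measurements, this is a description and was not tested.

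The genes that led the population, by the ratio of their mean CPM to the highest mean of any other cell type, were Gm8369 (138 ± 87.9 CPM, 15 cells, ratio 64.96), Fam169b (47.3 ± 37.9 CPM, 15 cells, ratio 26.7), Gzmk, Cd6, Icos, Cd8b1, Cd5, Ctla4, Cd28 and Grap2. Gramd3, Pstpip1, Slain1, Crbn and Camk4 completed the leading 15, with ratios of 3.37 to 4.60. Of the 15, 7 were genes of the T cell lists examined here. Gzmk, a granzyme of memory CD8 T cells, was detected in 12 of the 60 cells and in 1 NK cell.

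**Figure D2:**
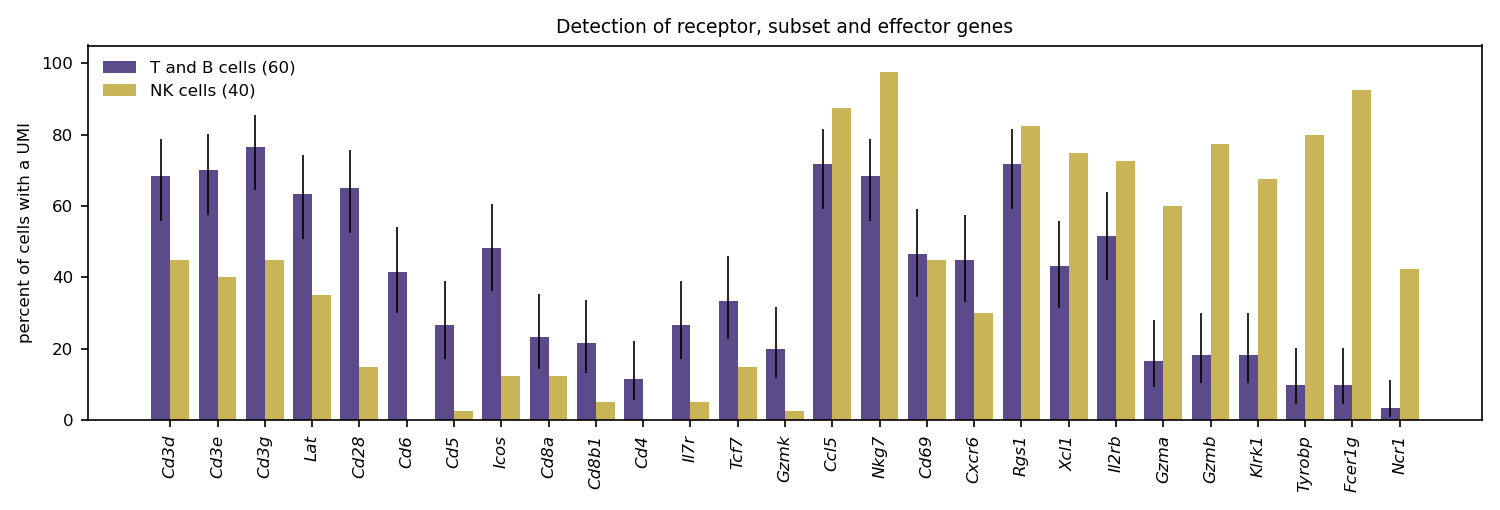
Percent of cells with at least 1 UMI of each gene in the 60 T and B cells (dark bars, with 95% Wilson intervals for counting error) and the 40 NK cells (light bars). Cd28, Cd6, Cd5, Icos, Il7r and Gzmk were found in larger shares of T and B cells, and Gzma, Gzmb, Klrk1, Tyrobp, Fcer1g and Ncr1 in larger shares of NK cells.

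The co-receptors divided the cells. Cd8a or Cd8b1 was detected in 17 cells and Cd4 in 7, no cell had both, and all 24 also had a CD3 chain. Of the 51 cells with a CD3 chain, 27 had a UMI of neither co-receptor. Cd8a and Cd8b1 were found together in 10 cells, Cd8a without Cd8b1 in 4 and Cd8b1 without Cd8a in 3. In epithelial cells Cd8a had a UMI in 0.0786%, Cd8b1 in 0.18% and Cd4 in 0.0112% of cells. The CD8 cells numbered 0 of 4 in Young A, 4 of 8 in Young B and 3 of 8 in Young C, and 2 of 11, 5 of 19, 1 of 4 and 2 of 6 in Aged A to D. They made up 29.2% ± 26.0 (SD, n = 3) of young and 25.7% ± 6.21 (SD, n = 4) of aged T and B cells, a difference of -3.46 percentage points that was not larger than the spread between mice (exact two-sided permutation test over 35 divisions of the mice, p = 0.8, adjusted p = 0.8 over 4 shares). After thinning to 2000 UMIs per cell, Cd8a and Cd8b1 were each detected in 8 cells, and the difference became 2.60 points (exact permutation test, p = 0.857).

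Helper and regulatory genes were sparse apart from Icos. Icos, an inducible costimulatory receptor, was detected in 29 cells, and in 7 of 7 cells with Cd4 against 6 of 17 with Cd8a or Cd8b1. The regulatory T cell factor Foxp3 had 1 UMI, in a cell of Young A. The receptor Tnfrsf4 (OX40) reached 1005 CPM in Young A, all from 17 UMIs of that same cell, and 0 to 129 CPM elsewhere. Ctla4, an inhibitory receptor, was found in 10 cells. Sox13, Il17a, Il23r and Cd163l1, genes of gamma-delta and type 17 T cells, were at 0 in all 60 cells.

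Ccl5, a chemokine that draws T cells, NK cells and monocytes, was the most abundant effector transcript. It was present in 43 of 60 cells with 2225 UMIs in all, from 1 or more cells of every mouse, and reached 340 UMIs in a single cell. That cell, from Aged D, had no UMI of a CD3 chain, 16 UMIs of Tyrobp and Fcer1g and 14 of Gzma. The summed cells held 1124, 11887 and 3143 CPM in Young A, B and C and 4667, 8966, 4384 and 15394 CPM in Aged A to D. The value of Aged D included the 340 UMIs of that 1 cell, and the next highest cell of Aged D held 174. The age groups overlapped, with the lowest value in Young A, whose 4 cells included no CD8 cell. Epithelial cells had a UMI of Ccl5 in 4.55% of cells. NK cells had one in 87.5% of cells and held 9638 ± 9743 CPM (SD, n = 5 mice), against 7081 ± 5162 CPM (SD, n = 7) in T and B cells. Ccl5 was present in 14 of 17 CD8 cells, with a median of 49 UMIs, and in 4 of 7 CD4 cells, with a median of 5 UMIs and a maximum of 22.

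Nkg7, a granule membrane protein, was detected in 38 of 43 cells with Ccl5 (median 4393 UMIs per cell) and in 3 of 17 without (median 4001 UMIs). NK cells held 2421 ± 870 CPM of Nkg7 (SD, n = 5 mice), against 837 ± 417 CPM (SD, n = 7) in T and B cells. Among the T and B cells, the naive and memory T cell receptor Il7r was detected in 4 of 29 with at least 20 UMIs of Ccl5 and in 9 of 17 with none. Its level was 177, 31.6 and 21.5 CPM in the young and 113, 158, 0 and 0 CPM in the aged mice. Of the other genes of naive and recirculating cells, Klf2, a factor that promotes S1pr1 expression, was the most widely detected, in 37 cells at 533 ± 416 CPM (SD, n = 7), but it also had a UMI in 37.8% of epithelial cells. Tcf7 was detected in 20 cells, Ccr7 in 12, S1pr1 in 11 and Lef1 in 10.

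Granzymes were expressed by few cells. Gzma was detected in 10 cells, Gzmb in 11 and Gzmk in 12, and perforin (Prf1) in 2. Gzma stood at 0, 443 and 926 CPM in the young and 0, 12.2, 3555 and 1067 CPM in the aged mice. Of its 186 UMIs, 110 came from cells with Tyrobp or Fcer1g, of which there were 7, and those adaptors were present in 5 of the 10 cells with Gzma but in 0 of the 12 with Gzmk. The 4 of these 7 cells that lacked a CD3 chain came from Young C (2 cells), Aged C and Aged D and all had Gzma. Gzmk was at 0, 221 and 86.1 CPM in the young and 96.9, 134, 0 and 197 CPM in the aged mice, and 6 of 12 cells with it were CD8 cells. NK cells held 6094 ± 5520.3 CPM of Gzma (SD, n = 5 mice with at least 3 NK cells) and 4.30 ± 9.61 CPM of Gzmk.

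Residency genes were widespread but incomplete. At least 1 of the 10 genes of this list was detected in 54 cells, led by Rgs1, a brake on chemokine receptor signaling, in 43, Cd69 in 28, Cxcr6, the receptor of Cxcl16, in 27 and the chemokine Xcl1 in 26. The integrins Itgae and Itga1 were detected in 4 and 3 cells, and the transcription factor Zfp683 in 0. Cd69 was found in 16 of 27 cells with Cxcr6 (median 4205 UMIs) and in 12 of 33 without (median 4393 UMIs), and in 4 cells with S1pr1. Rgs1 stood at 118, 316 and 646 CPM in the young and 791, 1693, 671 and 169 CPM in the aged mice, which overlapped through Aged D. Cxcr6 stood at 237, 158 and 129 CPM in the young and 178, 621, 0 and 197 CPM in the aged mice. Of its 84 UMIs in all mice, 29 came from 1 cell of Aged B that had no UMI of a CD3 chain. NK cells had Itgae in 9 of 40 cells, and held 1436 ± 753 CPM of Xcl1 against 299.6 ± 224 CPM (SD, n = 7) in the T and B population. They held 908 ± 462 CPM of Rgs1 and 286 ± 252 CPM of Cd69, against 629 ± 537 and 165 ± 65.8 CPM in T and B cells. Cxcr6 was at 112 ± 84.8 CPM in NK cells and 217 ± 193 CPM in T and B cells. Rgs1 was thus not particular to the T and B cells, and a macrophage population held 2395 CPM of it.

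Receptors and secreted factors of activated T cells were present at low counts. Among receptors, Il2rg, the common cytokine receptor chain, was detected in 37 cells, Il2rb in 31 and Il21r in 28. They were not particular to the T and B cells. Il2rg and Il2rb were found in 80% and 72.5% of NK cells against 61.7% and 51.7% of T and B cells. Il21r was nearly level, at 45% and 46.7%. The cytokines Ltb, Ifng and Ccl4 were detected in 31, 13 and 11 cells, and Csf2 in 0. Of the inhibitory receptors, Pdcd1 (PD-1) was found in 9 of the 60 cells and in 0 NK cells, Tigit and Havcr2 in 3 each, and Lag3 in 0. Nr4a1, induced by receptor signaling, was detected in 26 cells, but also in 44.2% of epithelial cells.

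Cell cycle phase, as deposited, was S in 28 cells, G2M in 22 and G1 in 10. Mki67 or Top2a, transcripts of dividing cells, was detected in 6 of the 28, 11 of the 22 and 0 of the 10, so that 33 of the 50 cells assigned to S or G2M had a UMI of neither. The 10 cells assigned to G1 were the deepest, with a median of 7008 UMIs. No share of cycling cells was read from the phases.

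Transcripts of epithelial cells were found in part of the T and B cells. The 6 epithelial genes (Epcam, Krt8, Krt18, Krt19, Krt14 and Krt17) had a UMI in 44 of 60 cells, and 13 cells held 20 or more UMIs of them, up to 172. Those 13 cells had a median of 8004 UMIs against 4009 UMIs in the other 47, and 9 of the 13 also had a CD3 chain. They were 3 of 20 young and 10 of 40 aged cells. The summed level of the 6 genes ranged from 296 to 5123 CPM in young and from 2266 to 5703 CPM in aged mice. Milk secretion genes ranged from 59.1 to 710.3 CPM in young mice and from 682 to 10928 CPM in aged mice, with 341 UMIs in 1 cell of Aged D. Of the 9 macrophage and dendritic cell genes, 5 were detected, in 14 cells, chiefly Cd74 in 10, H2-Aa in 5 and H2-Ab1 in 4, which B cells also express, whereas Lyz2, Csf1r, Adgre1 and C1qb were at 0. Of the 4 fibroblast genes, Dcn was detected in 8 cells, Col1a2 and Col3a1 in 2 each and Col1a1 in 0.

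**Figure D3:**
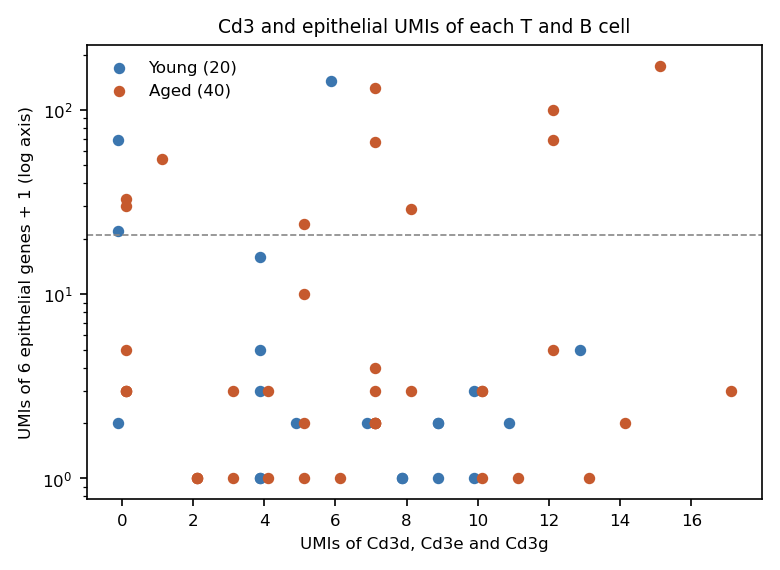
Each point is a T and B cell, with its UMIs of Cd3d, Cd3e and Cd3g on the horizontal axis and its UMIs of 6 epithelial genes plus 1 on a logarithmic vertical axis, and the dashed line marks 20 epithelial UMIs. The 13 cells above the line spread from 0 to 15 Cd3 UMIs, where the highest value of any cell was 17.

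The share of T and B cells was compared between ages because the study asked how the cell types of the gland change with age. Among all cells they made up 0.178%, 0.633% and 0.279% in Young A, B and C and 0.667%, 0.692%, 0.292% and 0.388% in Aged A to D. The groups overlapped, and the means of 0.363% ± 0.239 (SD, n = 3) and 0.51% ± 0.2 (SD, n = 4) did not differ beyond the spread between mice (p = 0.4 by the exact permutation test, adjusted p = 0.533).

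Among immune cells the picture was different. T and B cells were 4 of 218, 8 of 71 and 8 of 209 immune cells in Young A, B and C, which is 1.83%, 11.3% and 3.83%. They were 11 of 40, 19 of 35, 4 of 10 and 6 of 11 in Aged A to D, which is 27.5%, 54.3%, 40% and 54.5%. The groups did not overlap, and the mean was 7.81 times higher in aged mice (44.1% ± 13.0 against 5.64% ± 4.97). The exact two-sided permutation test gave p = 0.0571, adjusted p = 0.114, where 0.0286 is the smallest p that 35 divisions allow. Dendritic cells numbered 75, 24 and 106 in the young and 14, 5, 1 and 1 in the aged libraries. Of the macrophages, those named Ma in the metadata numbered 40, 20 and 61 in the young and 1, 0, 0 and 0 in the aged libraries. Those named Mb numbered 90, 16 and 18 in the young and 9, 6, 4 and 3 in the aged libraries. The denominator thus differed between ages as well, and its part in the share was not tested.

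Among stromal cells, the share was 0.3%, 1.13% and 0.559% in young and 3.07%, 4.61%, 1.65% and 1.99% in aged mice, again without overlap and 4.26 times higher on average (exact permutation test, p = 0.0571, adjusted p = 0.114). Without the 13 cells with 20 or more epithelial UMIs the difference in the share of immune cells fell from 38.4 to 23.9 percentage points (exact permutation test, p = 0.0571), and counting only cells with a CD3 chain it was 29.8 points (p = 0.0286). In the same 2 settings the difference in the share of stromal cells went from 2.17 to 1.44 points (exact permutation test, p = 0.171) and 1.78 points (p = 0.114). That in the share of all cells went from 0.146 to 0.0264 points (exact permutation test, p = 0.8286) and 0.0972 points (p = 0.571). The part of epithelial transcripts in these shares was not tested further.

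**Figure D4:**
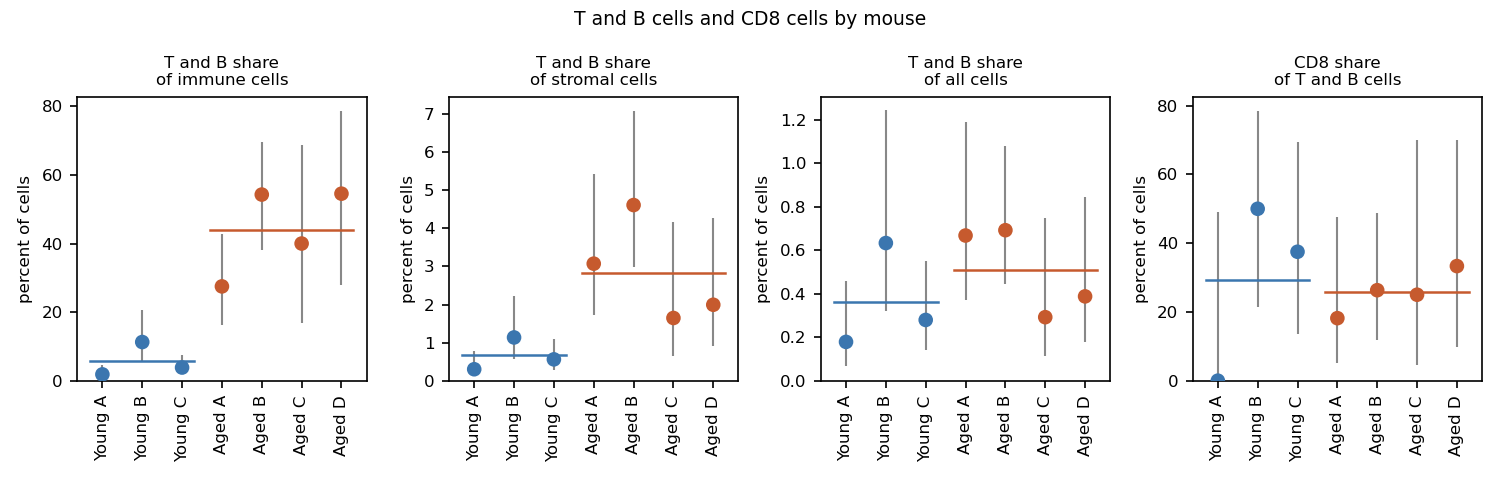
Percent of T and B cells among immune, stromal and all cells, and of cells with Cd8a or Cd8b1 among T and B cells, by mouse, with 95% Wilson intervals for counting error and group means as horizontal lines. Shares of immune and stromal cells did not overlap between ages, whereas shares of all cells and of CD8 cells did.

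Expression was compared between ages on the summed T and B cells of each mouse, 16910 to 82092 UMIs per mouse, which left 457 genes with enough counts. By edgeR's quasi-likelihood test with Benjamini-Hochberg adjustment (adjusted p under 0.05, change of 1.5-fold or more), 1 gene was higher in aged mice (0.219% of those tested) and 2 were lower (0.438%). At an unadjusted p under 0.05 there were 61 genes, and 70 genes (15.3%) did not overlap between the groups.

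Ms4a4b, a membrane protein of T cells that modulates their activation, was lower in aged mice. Its level was 1183, 506 and 990.2 CPM in Young A, B and C and 32.3, 122, 118 and 56.2 CPM in Aged A to D. Every aged mouse was below every young mouse. The log2 change from young to aged was -3.40 (SE 0.49, adjusted p = 0.0123). A UMI was present in 15 of 20 young cells (median 4385 UMIs per cell, up to 25 of the gene) and in 11 of 40 aged cells (median 4565 UMIs, up to 3). In NK cells, which were not part of the fit, Ms4a4b stood at 322, 542 and 257 CPM in the young mice and had 0 UMIs in the 12 aged NK cells, at least 5.48-fold lower against a floor of 3 UMIs over those cells. Elsewhere it was near 0, with a UMI in 0.101% of epithelial cells. The gene lies on chromosome 19 at 11443553 to 11467055 (GRCm38). The call was lost without Young A (adjusted p = 0.0908), without Young C (0.0725) in the mice with at least 5 T and B cells (0.209) and with a replicate block (0.113).

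Fabp4, a fatty acid carrier of capillary endothelium and adipocytes, was also lower in aged mice. Its level was 5677, 5058 and 344 CPM in the young and 80.7, 36.5, 0 and 112 CPM in the aged mice, a log2 change of -5.87 (SE 0.97, adjusted p = 0.0253). Of 272 UMIs in young T and B cells, 228 came from 2 cells, 93 in Young A and 135 in Young B, each of which also had CD3 chains. Vascular endothelial cells held 31300.5 to 39097 CPM in young and 10546 to 11897 CPM in aged mice, and the gene was lower in aged mice in fibroblasts and pericytes too. The summed endothelial genes Pecam1, Cdh5, Eng and Sox17 ranged from 21.5 to 253 CPM in young and from 0 to 80.7 CPM in aged T and B cells, and their part in the change was not tested. The call was lost without Young A, Young B, Aged A, Aged B or Aged C, at adjusted p of 0.0647 to 0.164, and in the mice with at least 5 T and B cells (0.278). Fabp4 lies on chromosome 3 at 10204088 to 10208576.

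Gm10260 was the gene that was higher. It had 0 UMIs in young T and B cells and 3876, 2997, 1580.0 and 3539.5 CPM in Aged A to D, at least 94.9-fold higher against a floor of 3 UMIs over the young cells (adjusted p = 0.00178). This difference was not particular to T and B cells. Over all cells of a mouse the row held 43 to 119 UMIs in young and 21511 to 47961 UMIs in aged libraries. RefSeq lists it as a pseudogene of Rps18, GENCODE as protein-coding (chromosome 13, 97760072 to 97760632). Counting could split reads between the copies, which was not tested. Rps18 itself stood at 6032, 8758 and 8179.6 CPM in the young and 6169, 5579, 5214 and 6096 CPM in the aged mice, without a call (log2 change -0.41, adjusted p = 0.372).

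**Figure D5:**
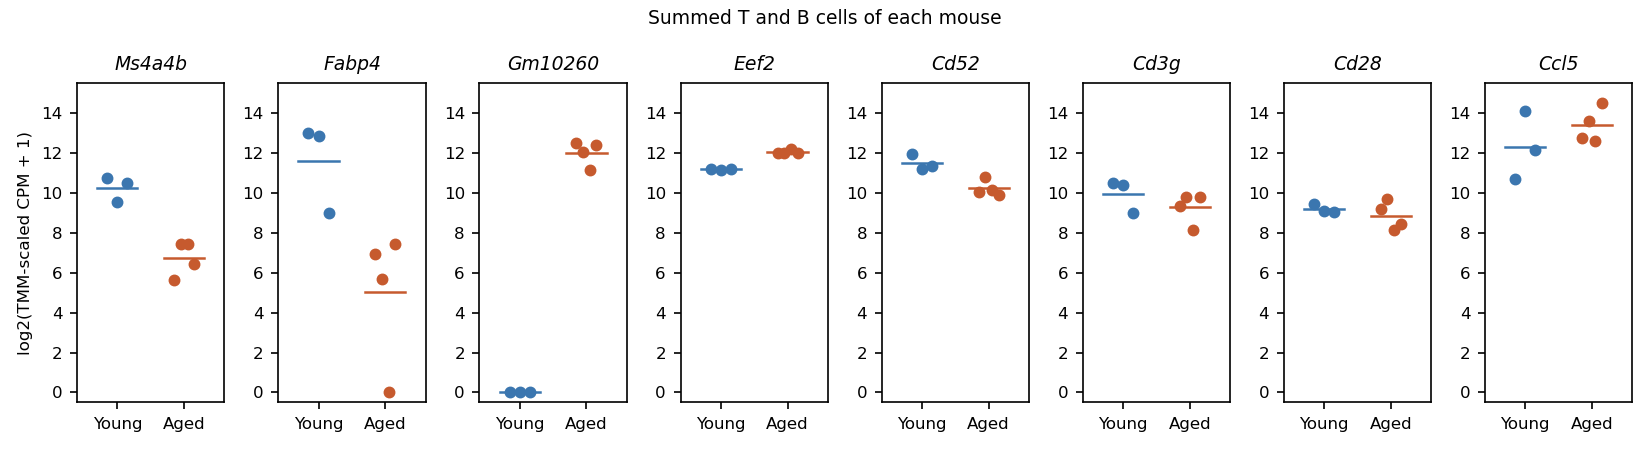
Levels of 8 genes in the summed T and B cells of each mouse, as log2 of TMM-scaled CPM plus 1, with 1 point per mouse and the group mean as a line. Ms4a4b and Fabp4 lay lower and Gm10260 higher in all 4 aged mice, and Cd3g, Cd28 and Ccl5 overlapped between the ages.

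No gene of the T cell lists was called in either direction. The T cell receptor complex had 3 of its 4 analysed genes tested, with a median log2 change of -0.51 beside -0.03 over all genes, and the signaling and adhesion genes 3 of 13 (median -0.15). Cd28 stood at 473, 379 and 366 CPM in the young and 388, 585, 197 and 225 CPM in the aged mice and overlapped (log2 change -0.12, SE 0.42, adjusted p = 0.889). The pan-leukocyte list was lower in 5 of its 6 genes by estimate and in none by the test (median -0.72). Its leading gene was Cd52, a surface glycoprotein of lymphocytes, at 2720.3, 1612 and 1787 CPM in the young and 711, 1291, 790.0 and 618 CPM in the aged mice (log2 change -1.25, adjusted p = 0.181).

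Of the 6 residency, cytotoxic and cytokine genes tested, 5 had estimates above 0 in aged mice and none passed the edgeR test. They were Rgs1 (log2 change 1.11, adjusted p = 0.506), Xcl1 (0.40, adjusted p = 0.82), Gzma (1.16, adjusted p = 0.755, and -0.61 without Aged C), Ccl5 (0.63, adjusted p = 0.674) and Ltb, the lymphotoxin chain, which stood at 177, 0 and 108 CPM in the young and 291, 317, 118 and 309 CPM in the aged mice (1.62, adjusted p = 0.372). The sixth, Nkg7, had an estimate of -0.66 (adjusted p = 0.554). With 1 mouse left out, the Ccl5 estimate ranged from 0.13 (without Aged D or Young A) to 1.96 (without Young B). Of 7 cycling genes, Stmn1 alone had enough counts, at 1774, 759 and 1098 CPM in the young and 339, 487, 316 and 0 CPM in the aged mice (log2 change -2.01, adjusted p = 0.266).

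Translation elongation genes had estimates above 0 in 6 of 6, with a median of 0.39. Eef2, the elongation factor that moves the ribosome along the mRNA, was at 1597, 1581 and 1593 CPM in the young and 2778, 2960.1, 3239 and 2725 CPM in the aged mice, without overlap but short of the threshold (log2 change 0.88, SE 0.18, adjusted p = 0.0996 by edgeR, and 0.0399 by DESeq2). Eef2 was also higher in aged mice in some other cell types. It stood at 1365 to 1551 CPM in young and 2659 to 3054 CPM in aged alveolar luminal cells. In vascular endothelium it stood at 959 to 1161 CPM and 1715 to 1955 CPM. The ages overlapped in NK cells (1032 to 1548 CPM in young and 1273 to 2254 CPM in aged mice). They also overlapped in Mb macrophages (831 to 928 and 668 to 943 CPM) and lymphatic endothelium (1056 to 1254 and 1143 to 1906 CPM). The pseudogene row Gm10036 was at 1538, 1138 and 904 CPM in the young and 371, 73.1, 39.5 and 140.5 CPM in the aged mice (-2.80, adjusted p = 0.0996 by edgeR, and 0.00195 by DESeq2) and was lower in aged mice in the other cell types that both ages held. Rpl13a, a ribosomal protein, overlapped at 6742 to 11097 CPM in young and 7655 to 10342 CPM in aged mice.

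Milk genes had the largest estimates above 0 among the lists. Csn3, a casein, stood at 59.1, 126 and 172 CPM in the young and 743, 195, 2172 and 4438 CPM in the aged mice (log2 change 3.85, adjusted p = 0.184), and Trf, transferrin, at 0, 94.8 and 258 CPM and 629.8, 341, 987 and 5674 CPM (3.78, adjusted p = 0.212). These adjusted p are by edgeR, and DESeq2 gave 9.45e-04 for Csn3 and 0.0931 for Trf. Without Aged B, edgeR gave an adjusted p of 0.0375 for Csn3. Both genes are expressed mainly by alveolar luminal cells, at 6299 and 5119 CPM. The cell with 341 milk gene UMIs held 28 epithelial UMIs, while a cell of Young C with 142 epithelial UMIs held 2 milk gene UMIs.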

How the data were processed

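The authors prepared a 10x Chromium 3′ v2 library from each mouse and processed it with Cell Ranger 2.0 against mm10. They deposited unnormalized UMI counts for every gene in each cell, with the mouse, cell type, phase and fraction of mitochondrial UMIs of each cell. Cell type names were used as deposited, and sums of the counts were used as depth. Members and gene lists were chosen with earlier results of these data known. Counts were summed per mouse over T and B cells (at least 3 cells), filtered with filterByExpr, scaled by TMM and tested with edgeR 4.0.16, with Benjamini-Hochberg adjustment. The mouse was the replicate, and shares were compared by exact two-sided permutation. The label letters were not used as pairs in the main fit. CPM were computed from the summed cells. Doublets were called with Scrublet in scanpy 1.11.5 (expected rate 0.06, 73 of 13684 cells, 0.534%) and kept. Thinning drew 2000 UMIs per cell. Named genes were those of 26 lists, the 15 leading genes among those with a UMI in at least 10 cells (1 CPM added to both means), all called genes and 5 genes that the study names. A few genes of the lists are not reported here. The fit was tested on simulated data. Alternatives were DESeq2 1.42.0, RLE factors, other filters, thinned counts, a replicate block, subsets of the cells and each mouse left out. Python 3.11.15, R 4.3.3 and matplotlib 3.10.9 were used. Gene positions are from GENCODE vM21.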

Additional observations from a re-analysis of the deposited data

Results flagged for a closer look

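In 30 groups of 4 aged mice, those of the 4 shares and of 26 genes, 3 values stood apart from the other aged mice by Dixon's criterion for 4 samples, where chance gives about 1 group in 20. Cd3d in Aged B was high at 621 CPM, with the other aged mice at 197 to 225 CPM. Trf in Aged D was high at 5674 CPM, of which 1 cell gave most. Ltb in Aged C, which had 4 T and B cells, was low at 118 CPM.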

How the results depend on the processing

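With 4 to 19 cells per mouse, a single cell or mouse could move a result, and most T cell genes had too few counts to be tested by age. The difference in the share of immune cells (38.4 points, exact permutation p = 0.0571) passed 0.05 as log-odds (2.77, p = 0.0286), among cells with at least 1000 genes (37.8 points, p = 0.0286) and with CD3-positive cells alone (29.8 points), an alternative chosen after seeing the data like that on epithelial UMIs. The share of stromal cells passed as log-odds (1.52, exact permutation p = 0.0286). Leaving out 1 mouse gave 34.95 to 44.0 points for immune, 1.57 to 2.56 for stromal and 0.0537 to 0.281 for all cells, in designs too small to reach p under 0.05. The CD8 difference changed sign at 2000 UMIs (2.60) and ranged from -18.0 to 6.96 points without 1 mouse.

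The count of genes higher in aged mice was 4 with DESeq2, 25 with no filter on low counts (10501 genes) and 28 among genes in at least 10% of cells, and 1 to 2 without 1 mouse. The count of genes lower was 3 with DESeq2, 19 and 25 with those filters, 0 in mice with at least 5 cells, 1 after thinning and 0 to 3 without 1 mouse. The gene lower after thinning each mouse to 16910 UMIs was Gm10036, and Ms4a4b and Fabp4 were not among the genes tested at that depth. All 3 called genes were among the calls under both looser filters, which added 30 and 39 genes outside the main table. With a replicate block of the label letters, 1 gene was lower (Ms4a4b adjusted p = 0.113, Fabp4 9.35e-04), and the correlation of same-letter mice was positive for A and C but not for B (r = 0.281, 0.192 and -0.106), so the letters were not taken as pairs. Ms4a4b stayed below 0 in 19 of 19 alternatives (log2 change -3.81 to -3.06, adjusted p 3.28e-05 to 0.209) and was called in 15. Fabp4 was called in 13 of 19 and Gm10260 in 20 of 20. Sparc, an extracellular matrix gene noticed after its values were seen, was called lower in 7 of 11. Some named genes changed sign. Cd28 ranged from -0.49 to 0.045 without 1 mouse (above 0 without Aged C, and 0.032 without Aged D). Gzma ranged from -0.61 (without Aged C) to 2.11. Rpl13a was 0.0091 under DESeq2, 0.011 with RLE factors and -0.24 to 0.15 without 1 mouse (above 0 without Young B, Aged A or Aged C). Of 172 values of 20 named genes, 164 kept the main direction.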
